A study of Mus musculus with 19 samples.

Results

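The genes described here were 10 genes of growth hormone and cytokine signalling through the STAT5 and STAT3 transcription factors, namely the receptors Ghr and Cntfr, the transcription factors Stat5a, Stat5b and Stat3, the feedback inhibitors Cish, Socs1, Socs2 and Socs3, and the secreted protein Mup1. They were taken by name as 10 of the 27793 gene names on the array, and every probe that carried one of these names in the scanner files was kept, which gave 18 of 41174 probes. The names were picked with the array values already in view, so the values of these genes are given as a description. Standard errors, intervals and counts of genes past a threshold are printed for scale, beside the same share over all genes, and support nothing about the 10 genes. Each of 19 RNA samples was hybridised to its own 1-colour Agilent mouse array, and the samples came either from the mouse myoblast line C2C12 or from soleus, a slow-twitch muscle of the mouse hindlimb. There were 6 arrays of control C2C12 cells, labelled WT and carrying empty plasmids, and 6 arrays of C2C12 cells labelled HDAC4&5. The HDAC4&5 cells stably expressed human wild-type HDAC4 and HDAC5, which are class IIa histone deacetylases, from the plasmids pIRES neo3 and pIRES hyg3, and both kinds of cells were grown under hygromycin B and geneticin. The labels name neither clones nor separate cultures, and the methods of the study give fewer biological replicates for a group than there are arrays of WT, HDAC4&5 and db, without tying arrays to them. Some arrays of a group may thus share a culture or an animal, the spread between them may be technical, and standard errors over arrays may be too small. There were 4 arrays of soleus from male db/db mice on the C57BL/6J background, labelled db. These mice are homozygous for a defect of the leptin receptor and become obese. Another 3 arrays of soleus came from their heterozygous littermates, labelled Con. All mice were 12 weeks old and had been fasted for 5 hr. The aim of the comparisons was to find genes that move with HDAC4 and 5 in muscle cells and with obesity in muscle.

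Growth hormone binds its receptor on the cell surface and activates the kinase JAK2, which phosphorylates STAT5A and STAT5B so that they enter the nucleus and bind DNA as dimers. Among the genes they switch on are Cish and Socs2, whose products shut the signal down, and in the liver Igf1 and the major urinary proteins. Cytokines of the interleukin 6 family, ciliary neurotrophic factor among them, work through gp130 and STAT3, with Socs3 as the feedback inhibitor. The promoters of Cish and Socs3 are shown because they were the only ones among these genes that held the core of a STAT binding element, TTCNNNGAA, which reads the same on both strands, in the window from 250 bases before to 50 bases after a RefSeq start on GRCm38.p6. The Cish stretch lies at chr9:107296479-107296678 on the plus strand, from 180 bases before the start to base 20 after it, and the Socs3 stretch at chr11:117969367-117969566 on the minus strand, from 200 bases before the start up to it. Capitals mark the core.
Cish: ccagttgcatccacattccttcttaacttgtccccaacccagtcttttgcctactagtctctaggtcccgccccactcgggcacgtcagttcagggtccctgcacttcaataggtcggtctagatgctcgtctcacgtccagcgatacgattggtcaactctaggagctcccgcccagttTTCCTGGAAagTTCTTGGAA
Socs3: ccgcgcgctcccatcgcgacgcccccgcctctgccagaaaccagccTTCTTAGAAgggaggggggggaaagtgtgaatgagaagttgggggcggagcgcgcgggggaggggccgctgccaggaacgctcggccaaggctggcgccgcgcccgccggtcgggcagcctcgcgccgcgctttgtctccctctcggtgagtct

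The Cish window held 2 cores, at bases 1 to 9 and 12 to 20 from the start, and the Socs3 window held 1, at bases -154 to -146. Of all 32851 windows of this length, 8.3% held the core and 0.457% held more than 1. There were 16 windows for 8 of the 10 genes, with 1 each for Cish, Socs1, Socs3 and Stat3, 2 each for Ghr, Stat5a and Stat5b and 6 for Cntfr. The windows of Socs1, Ghr, Stat5a, Stat5b, Cntfr and Stat3 did not hold these letters. Socs2 and Mup1 had no window in the table. Stat5b, Stat5a and Stat3 are neighbours on mouse chromosome 11, where their probes span 108 kb on mm9, the build of the files, and RefSeq places no other gene within the run.

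Levels are given as log2 of the processed signal minus the array's 75th percentile, so 0 is the 75th percentile of that array, and they are set against each other only within a probe. Where a gene had several probes, probe 1 is the brightest. Spots that the scanner software marked as outliers were left out, and no spot of the 10 genes was saturated. The 75th percentile was 564 to 1691 signal units on the WT arrays, 494 to 873 on HDAC4&5, 153 to 555 on Con and 180 to 686 on db. Every slide held both groups of its data set. C2C12 cells took up 3 slides and soleus 2, with 2 Con and 2 db arrays on the first soleus slide and 1 Con and 2 db arrays on the second. The soleus slides stood apart, with a 75th percentile of 153 to 232 on the first and 555 to 686 on the second, so soleus differences are also given within each slide and with slide as a block. In C2C12 cells 9781 of 14104 genes tested passed an adjusted p of 0.05 in limma, which is 69.3% (36.5% higher and 32.8% lower in HDAC4&5 cells), and in soleus 1 of 12990 did, which is 0.00770%. That gene was Mup1. At an unadjusted p under 0.05 the shares were 71.3% and 6.34%.

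The labels of the cells were first set against the genes they concern. The mouse Hdac5 probe read 2.19 ± 0.38 (SD, n = 6) in WT and 3.60 ± 0.62 (SD, n = 6) in HDAC4&5 cells, and the mouse Hdac4 probe 0.28 ± 0.06 and 0.23 ± 0.06. The plasmids carry the human genes, and how far a mouse probe reads human mRNA was not tested. Most markers of muscle cells were far lower in the HDAC4&5 cells, which are labelled as C2C12 myoblasts. Of 12 muscle genes 11 were tested, and 10 were lower and 1 higher in HDAC4&5 cells past the adjusted p. The median difference was -7.63 on the log2 scale beside 0.05 over all genes tested. Only 4 of the 12 were well above background on all HDAC4&5 arrays and 3 were on none, so the size of this median rests in part on background signal. The summed linear level of these 12 genes, in multiples of the array's 75th percentile and with outlier spots kept, was 139 to 238 in WT and 1.80 to 2.06 in HDAC4&5 cells, with Cdh15, a cadherin of satellite cells and myoblasts, as the brightest. The myogenic regulator Myod1 was well above background on 6 of 6 WT arrays and 0 of 6 HDAC4&5 arrays. Tnni1 and Ckm, a troponin and the muscle creatine kinase, were likewise at background in HDAC4&5 cells. The part of this difference in the values of the 10 genes was not tested. In bulk samples such as these, fewer cells of a type and less RNA per cell cannot be told apart.

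Ghr, the growth hormone receptor, read 1.47 to 1.73 (median 1.58) in WT cells and 2.28 to 2.63 (median 2.40) in HDAC4&5 cells at probe 1, which lies on chromosome 15 of mm9 from 3268107 to 3268166. The groups did not overlap, and the difference was 0.83 (SE 0.08), a 1.78-fold higher signal in HDAC4&5 cells. All 5 Ghr probes were higher in HDAC4&5 cells without overlap, by 0.62 to 1.33. In soleus the same probe read 3.83 and 4.18 on Con replicates 1 and 2 and 3.85 and 3.48 on db replicates 1 and 2. The spots of Con replicate 3 and of db replicates 3 and 4 were outliers, so this comparison holds 2 arrays against 2, all from the first slide. The groups overlapped, with a difference of -0.34 (SE 0.44). With the outlier spots kept, the difference was 0.14. The other Ghr probes did not run one way in soleus. Probe 3, with db replicate 3 left out as an outlier, was higher in db by 0.96 (SE 0.38) and probe 4 was lower by 0.78, at -0.78 (SE 0.30), both without overlap between the groups, and the probes that overlapped gave 0.56 (SE 0.41) at probe 2 and -0.16 (SE 0.36) at probe 5. On mm9 probe 3 runs from 3283509 to 3290961, across an intron, and probe 4 from 3295320 to 3295379.

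Cntfr, the alpha subunit of the receptor for ciliary neurotrophic factor, read -3.17 to -2.80 (median -2.92) in WT cells and -6.67 to -4.16 (median -5.49) in HDAC4&5 cells, from 1 probe on chromosome 4 from 41604608 to 41604667. The probe was well above background on 6 of 6 WT arrays and 2 of 6 HDAC4&5 arrays. The groups did not overlap, and the measured means differed by -2.63 (SE 0.35), with 4 of the 6 HDAC4&5 values not well above background. In soleus it read -1.55, -1.70 and -0.90 on the Con arrays and -5.44, -3.11 and -3.30 on db replicates 1, 2 and 4, with db replicate 3 left out as an outlier. All 3 db values lay below all 3 Con values, and db replicate 1, the lowest, was not well above background. The difference was -2.57 (SE 0.66), with -2.65 within the first slide and -2.41 between the 1 Con and 1 db array left on the second. It was -1.82 without db replicate 1, and -1.01 in the matrix that the authors deposited. The outlier spot read -2.22, and with outlier spots kept the difference was -2.14. The background correction bore on this dim probe, since normexp gave -0.57 in C2C12 cells and -1.10 in soleus.

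Stat5b, the STAT5 form that carries most of the growth hormone signal in liver, read 0.38 to 0.66 (median 0.45) in WT cells and 1.42 to 1.67 (median 1.48) in HDAC4&5 cells at probe 1, on chromosome 11 from 100642099 to 100642158. The difference was 1.01 (SE 0.07), without overlap. Probe 2 was also higher in HDAC4&5 cells, where the measured means differed by 1.82 (SE 0.14), with 4 of 6 WT arrays well above background. Probe 3 was not well above background on any C2C12 array. In soleus probe 1 read 4.07, 4.56 and 6.13 on the Con arrays and 3.98, 6.21 and 5.51 on db replicates 2, 3 and 4, with db replicate 1 left out as an outlier. The groups overlapped and the values went with the slide, since the arrays of the second slide read 6.13, 6.21 and 5.51. The difference was 0.31 (SE 0.74) and turned to -0.31 (SE 0.30) with slide as a block. The other probes ran opposite ways in soleus, each with overlap between the groups. Probe 2, well above background on 2 of 3 Con arrays, gave 0.88 (SE 0.45), and 0.98 (SE 0.38) with slide as a block. Probe 3 gave -0.78 (SE 0.67), and -1.04 (SE 0.37) with slide as a block.

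Stat5a, the closely related second STAT5 gene, had 1 probe, on chromosome 11 from 100746144 to 100746203. It read 0.39 to 0.71 (median 0.53) in WT cells and 0.34 to 0.92 (median 0.64) in HDAC4&5 cells. In soleus it read 1.87, 2.05 and 2.26 on the Con arrays and 1.82, 1.61, 2.46 and 2.26 on the db arrays. The groups overlapped in both data sets, with differences of 0.13 (SE 0.10) and -0.02 (SE 0.32). The 95% intervals of the soleus differences were -0.76 to 0.71 for Stat5a and -1.43 to 2.05 for Stat5b, and with slide as a block the latter was -1.01 to 0.40.

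Stat3, which carries the signal of the gp130 receptors, was read by 10 spots of probe 1 on each array. These averaged 3.41 to 3.72 (median 3.54) in WT cells and 2.65 to 2.90 (median 2.72) in HDAC4&5 cells, without overlap and with a difference of -0.80 (SE 0.07), with 1 outlier spot left out on HDAC4&5 replicate 1. In soleus the averages were 2.39, 3.30 and 0.80 on the Con arrays and 2.31, 2.78, 1.85 and 1.89 on the db arrays, with 1 or 2 outlier spots left out on Con replicate 3 and db replicates 1 and 2. The lowest and the highest value were both Con arrays, and the difference was 0.04 (SE 0.58), with -0.30 within the first slide and 1.07 within the second. Probe 2 of Stat3, which carries that name in the C2C12 files but not in the soleus files, overlapped in both data sets. With the mean of both probes the C2C12 difference was -0.49.

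Cish, an SH2 protein that binds activated cytokine receptors and blocks STAT5, had 1 probe, on chromosome 9 from 107204196 to 107204255. It read -0.69 to -0.57 (median -0.67) in WT cells and -3.09 to -2.77 (median -2.87) in HDAC4&5 cells. The arrays of each group lay close together, and the groups did not overlap. The difference was -2.24 (SE 0.06), a 4.72-fold lower signal in HDAC4&5 cells, and -1.43 with normexp. In soleus Cish read 2.93, 1.76 and 2.09 on the Con arrays and -0.04, -1.18, -2.06 and -2.48 on the db arrays. All 4 db arrays lay below all 3 Con arrays. The db arrays spread more widely than the Con arrays, and their values went with the slide. They read -0.04 and -1.18 on the first slide and -2.06 and -2.48 on the second. The difference was -3.70 (SE 0.61), a 13.0-fold lower signal in db muscle. It was -2.95 within the first slide, -4.36 within the second and -3.52 (SE 0.46) with slide as a block, and normexp gave -2.94.

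Socs2, the feedback inhibitor whose loss in mice causes overgrowth through unchecked growth hormone signalling, had the widest difference of the 10 genes in C2C12 cells. Probe 1, on chromosome 10 from 94875066 to 94875125, read 4.54 to 4.62 (median 4.57) on 4 WT arrays and -4.93 to -3.64 (median -4.27) on 6 HDAC4&5 arrays. The spots of WT replicates 5 and 6 were outliers, and with them kept they read 4.05 and 3.67. The measured means differed by -8.86 (SE 0.25), and 5 of 6 HDAC4&5 arrays were still well above background. The difference was -8.56 (SE 0.12) with slide as a block, -8.62 with the outlier spots kept, -7.67 with the mean of both probes and -7.14 with normexp. WT replicates 5 and 6 are the WT arrays of the third slide, so the value with slide as a block rests on the first and second slides. Probe 2, from 94850747 to 94850806, read 0.31 to 0.48 (median 0.43) in WT cells and was not well above background on any HDAC4&5 array, so its signal was at least 55.5-fold lower there. In soleus probe 1 read -0.49, -0.25 and -0.03 on the Con arrays and -0.76, -1.32, -1.03 and -0.83 on the db arrays. The groups did not overlap but lay close, with a difference of -0.73 (SE 0.29), and it was -0.67 and -0.90 within the slides and -0.45 with normexp. Probe 2, which does not carry the name Socs2 in the soleus files, was lower in db by a difference of -1.21 (SE 0.43), with db replicate 2 above Con replicate 3.

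Socs3, the inhibitor that STAT3 switches on, read 4.07 to 4.24 (median 4.18) in WT cells and 2.99 to 3.22 (median 3.15) in HDAC4&5 cells, from 1 probe on chromosome 11 from 117827480 to 117827539. The groups did not overlap and the difference was -1.04 (SE 0.05). In soleus it read 1.91, 1.86 and 1.41 on the Con arrays and 2.80, 2.67, 1.63 and 2.09 on the db arrays. The groups overlapped over both slides, while within each slide every db array lay above every Con array, by 0.85 on the first slide and 0.45 on the second. Socs3 was thus lower in HDAC4&5 cells and on the higher side in db muscle, at 0.57 (SE 0.37) or 0.69 (SE 0.21) with slide as a block. Whether the effects in the cells and in the muscle differ was not tested.

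Socs1, which inhibits JAK kinases directly, was the only inhibitor of the 4 that was higher in HDAC4&5 cells. It read 2.44 to 2.87 (median 2.65) in WT and 3.84 to 4.30 (median 4.06) in HDAC4&5 cells, without overlap and with a difference of 1.43 (SE 0.10), a 2.70-fold higher signal. In soleus it read -1.17, 0.47 and 0.28 on the Con arrays and -1.13, -0.50, 0.17 and 0.51 on the db arrays. The groups overlapped, with a difference of -0.10 (SE 0.54).

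Mup1, a lipocalin that carries pheromones in mouse urine and that growth hormone controls in liver, was read by 1 probe on chromosome 4 from 60511965 to 60512188. The file lists 6 RefSeq transcripts for this probe, from the 5 genes Mup1, Mup2, Mup12, Mup15 and Mup19, so the reading cannot be given to Mup1 alone. It was not well above background on any of the 12 C2C12 arrays, where it was not tested. In soleus it read 0.79, 0.61 and -0.72 on the Con arrays, well above background on all 3. It read -5.38, -5.64, -6.46 and -6.48 on the db arrays and was not well above background on any of the 4. The signal in db muscle was at least 21.3-fold lower, where each db array was set at its lowest signal well above background. The measured means differed by -6.22 (SE 0.48), with -6.21 within the first slide and -5.75 within the second. With normexp, which raises dim signals, the difference of the means was -2.68. The lowest Con value, on the second slide, lay above the highest db value.

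**Figure D1:**
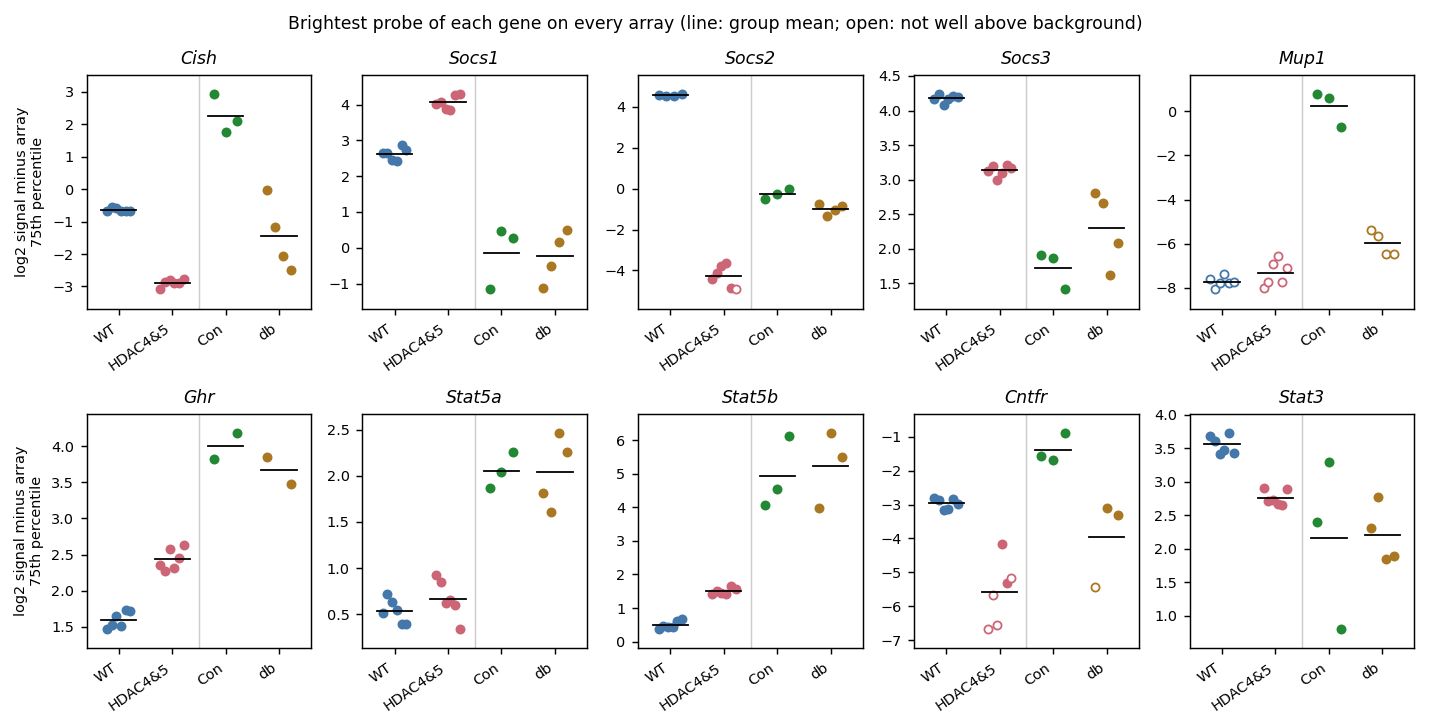
Log2 signal minus the array's 75th percentile (y) of the brightest probe of each of the 10 genes on every array, in WT and HDAC4&5 C2C12 cells and in Con and db soleus. Filled points are well above background, open points are not, lines are group means, and outlier spots are left out. The 4 db arrays lie below the 3 Con arrays for Cish, Socs2 and Mup1, and the 6 HDAC4&5 arrays lie below the WT arrays for Socs2, Cish, Cntfr, Socs3 and Stat3.

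Hepatocyte genes were set beside Mup1, since liver is its main source. Of 11 measured hepatocyte genes, 7 were not well above background on any soleus array, among them Alb, Apoa1, Ttr, Fgb and Fga, while Trf, Hp and Cyp2e1 were well above it on all 7. Their summed linear level was 21.1, 7.42 and 6.17 times the 75th percentile on the Con arrays and 16.4, 62.2, 6.83 and 17.2 on the db arrays, with Hp as the brightest, and the sums of the groups overlapped. Of the 3 hepatocyte genes tested 2 were lower in db, with a median difference of -0.11, and Hp and Trf overlapped between the groups. Cyp2e1, singled out after its values were seen, read 0.24 ± 1.00 (SD, n = 3) in Con and -1.65 ± 0.58 (SD, n = 4) in db without overlap, with an adjusted p of 0.57 in limma. Of the other Mup genes with a probe, Mup5, Mup6, Mup8 and Mup9 were not well above background on any array. Mup3 at its brighter probe read -4.44 (SD 1.11) in Con, with no array well above background. In db it read -4.22 (SD 1.35), with 2 of 4 arrays well above background. Mup4 read -1.57 ± 1.59 (SD, n = 3) in Con and -3.71 ± 1.82 (SD, n = 4) in db, where 2 of 4 arrays were well above background. The summed level of Mup3, Mup4, Mup5 and Mup6 was 0.81, 0.70 and 0.14 on the Con arrays and 0.43, 0.28, 0.06 and 0.12 on the db arrays, with Mup4 as the brightest. It was lower on every db array than on every Con array of its slide. On the second slide only 1 of the 4 was well above background on Con replicate 3 and on db replicate 4. On db replicate 3 it was 0, so the sums there lie near background. The part of liver RNA in the Mup1 values was not tested.

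At the brightest probe 8 of the 10 genes did not overlap between WT and HDAC4&5 cells, 5 lower and 3 higher, where 54.5% of all genes tested did not overlap (28.2% higher and 26.3% lower). The same 8 passed the adjusted p, of 9 tested, where 69.3% of all genes did. They also passed it with slide as a block, where 77.0% of genes did, and in the fit that blocked on replicate number, where 76.2% did, and Stat5a passed in none of these fits. In soleus 4 of the 10 did not overlap, all lower in db, beside 10.1% of all genes, 5.16% lower and 4.97% higher. These were Mup1, Cish, Cntfr and Socs2, and the same 4 lay below Con within both slides, which 15.4% of 12251 genes did. Socs3 lay above Con within both slides, as did 14.6%. Mup1 alone passed the adjusted p, and Cish also passed it with slide as a block, where 40 genes or 0.308% did. With the replicate number as a block Mup1 alone passed. No gene passed without Con replicate 1 or 2 or without db replicate 2, 3 or 4, each left out alone. Since the genes were chosen for such values, nothing is read from these counts. The median difference over the genes tested was -0.80 for the 9 in C2C12 cells and -0.22 for the 10 in soleus, beside 0.05 and -0.02 over all genes.

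**Figure D2:**
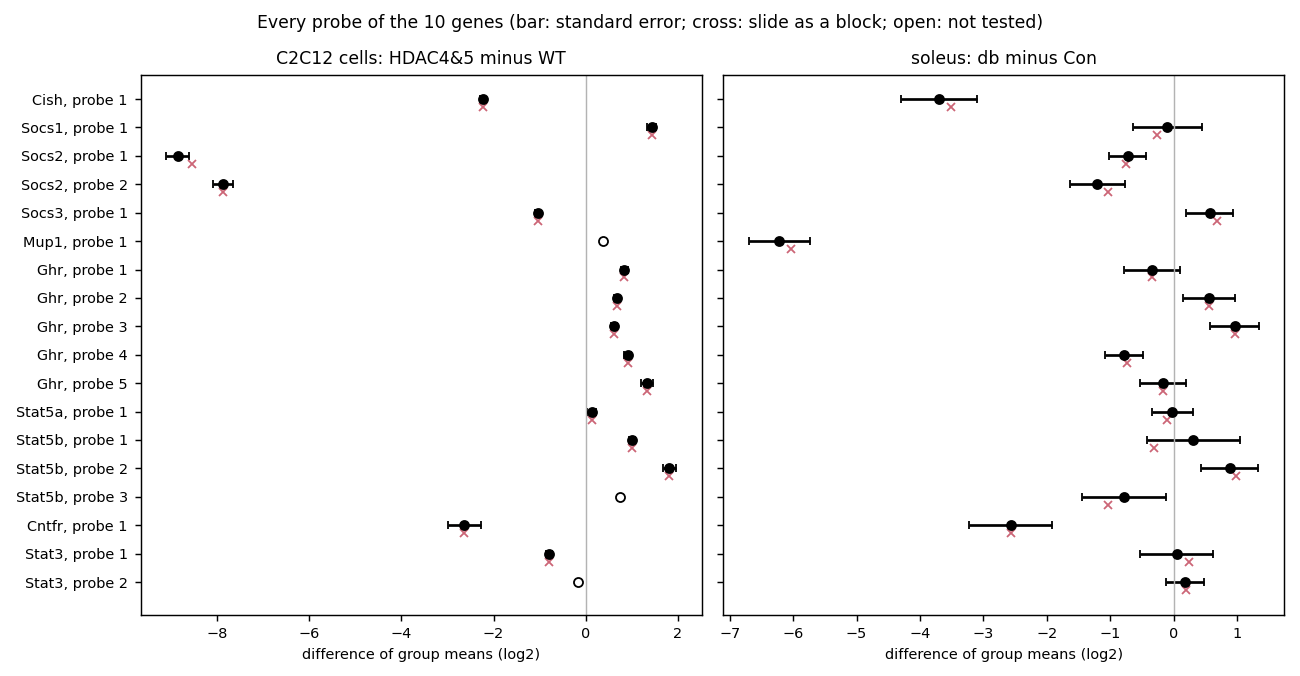
Difference of the group means on the log2 scale (x) for each of the 18 probes (y) in C2C12 cells, left, and soleus, right. Points are the differences with bars of 1 standard error, crosses the differences with slide as a block, and open points probes that were not tested. The Socs2 probes are the lowest in C2C12 cells, where probe 2 reads background in HDAC4&5 cells, and Mup1, Cish and Cntfr are the lowest in soleus.

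**Figure D3:**
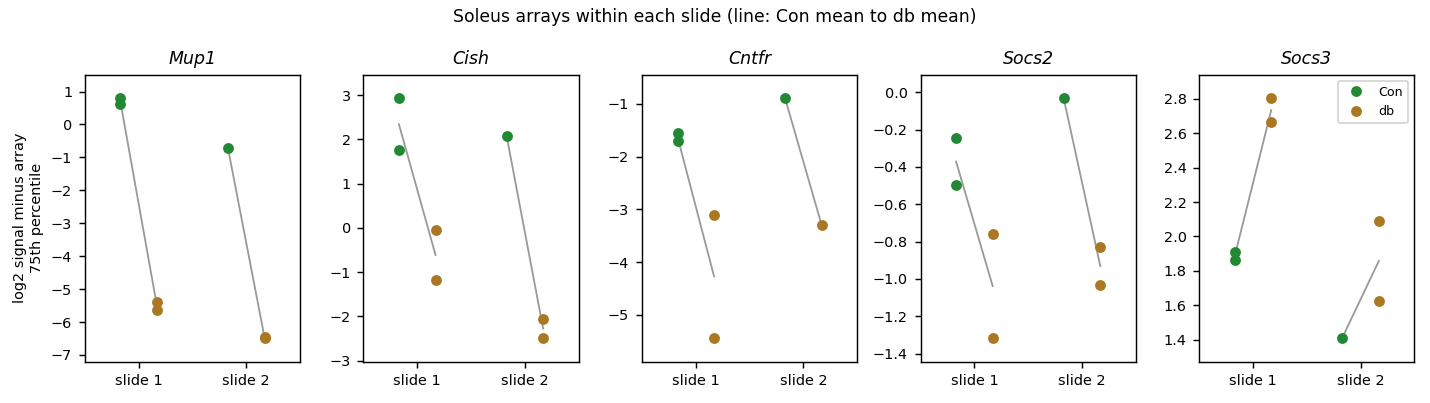
Log2 signal minus the array's 75th percentile (y) of 5 genes on the soleus arrays of each slide (x), Con in green and db in brown, with a line from the Con mean to the db mean. Mup1, Cish, Cntfr and Socs2 are lower in db on both slides, and Socs3 is higher in db on both.

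The order of the 4 groups at the brightest probe differed between the genes. C2C12 and soleus levels differ in source and in slide, which cannot be told apart, and their order rests on the scaling of each array to its 75th percentile. Con was highest and HDAC4&5 lowest for Cish, with WT and db between them and overlapping. WT was highest for Socs2, followed by Con, db and HDAC4&5, and no neighbours overlapped. Con was highest for Mup1, and db, WT and HDAC4&5 have no order, since none of their arrays was well above background. For Ghr and Stat5b both soleus groups, which overlapped, lay above HDAC4&5 and that above WT. For Stat5a the soleus groups overlapped above both C2C12 groups, which overlapped too. For Socs3 and Socs1 both C2C12 groups lay above both soleus groups, WT first for Socs3 and HDAC4&5 first for Socs1, with Con and db overlapping. For Stat3 WT was highest and the other 3 groups overlapped, and for Cntfr Con was highest and the other 3 groups overlapped from each to the next. Another scaling, background correction or treatment of outlier spots turned neighbours in the order for 6 of the 10 genes, and of these turns all were between groups that overlapped.

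The genes whose values followed Cish most closely over the 7 soleus arrays, each taken minus the mean of its slide, were Prkd2, Rbpms2, Cldn5, Sike1 and Prpsap1, with a Pearson correlation of 0.99 each among 9277 genes well above background and with no outlier spot left out on all 7 arrays. This is a description over 7 arrays that share slides and groups, and it does not separate likeness from a difference that both genes have between Con and db. Cldn5, a tight junction protein of endothelial cells, had the widest difference of the 5, at -1.90 (SE 0.72). Its values were 3.55, 3.05 and 1.86 on the Con arrays and 2.12, 1.90, -0.20 and -0.13 on the db arrays. Among the other members that met these conditions, Socs2 had a correlation with Cish of 0.90 (rank 169), Stat5a 0.29, Socs1 -0.03, Stat3 -0.54 and Socs3 -0.81. Mup1 was not compared, since it was not well above background on any db array.

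**Figure D4:**
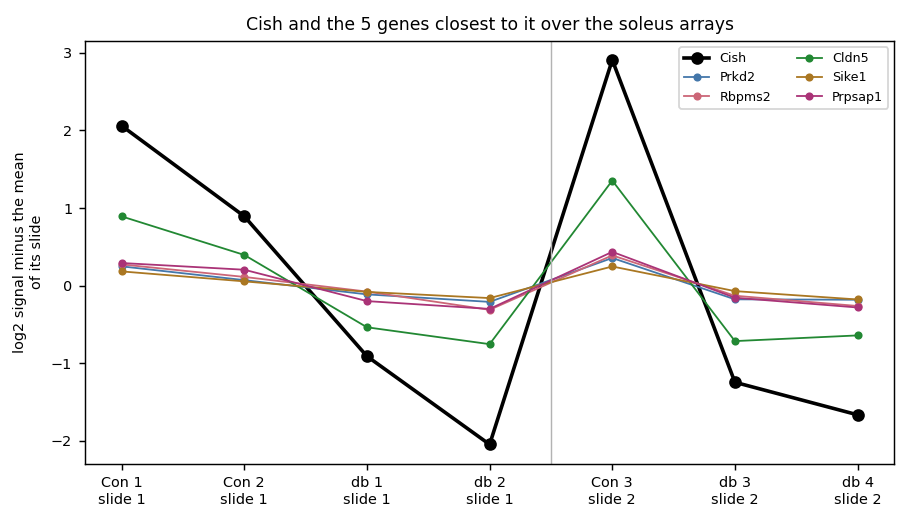
Log2 signal minus the mean of its slide (y) of Cish, in black, and of the 5 genes closest to it on the 7 soleus arrays (x, grouped by slide). Within each slide all 6 are higher on the Con than on the db arrays, and Cish spans the widest range.

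Markers of other cell types were set beside Cish and Mup1 in soleus. All 5 endothelial genes were lower in db, with a median difference of -0.52, and none passed the adjusted p in limma (lowest 0.76). Their summed level was 13.7, 15.2 and 23.3 on the Con arrays and 7.57, 6.37, 13.1 and 11.4 on the db arrays, with Cdh5 as the brightest, and the groups did not overlap. The 3 erythrocyte genes tested were lower in db as well, with a median difference of -1.74, and Hbb-bt, a haemoglobin gene, passed the adjusted p in limma with slide as a block, at 0.027. The summed level of the 5 erythrocyte genes measured was 370, 172 and 164 on the Con arrays and 90.3, 157, 125 and 117 on the db arrays, with the haemoglobin gene Hba-a1 as the brightest. All 12 muscle genes were well above background on all 7 arrays, and 9 of the 12 were lower in db, with a median difference of -0.62 beside -0.02 over all genes and none past the adjusted p. Their summed level was 2375, 3027 and 1162 on the Con arrays and 2764, 2396, 917 and 998 on the db arrays, lower on the second slide in both groups, with Myh7 as the brightest. The adipocyte sum was 384, 441 and 226 on the Con arrays and 258, 310, 171 and 192 on the db arrays, with Fabp4 as the brightest. It overlapped over both slides, while within each slide every db array lay below every Con array. By gene the adipocyte list did not run with this sum, since 3 of its 7 genes were lower in db, with a median difference of 0.05. Of the genes tested 2 of 6 macrophage, 1 of 6 nerve and Schwann cell and 3 of 4 lymphocyte genes were lower in db, with median differences of 0.20, 0.09 and -0.31. The macrophage sum was 36.5 to 123 in Con and 42.1 to 114 in db, with Lyz2 as the brightest and Itgam not well above background on any array. The nerve and Schwann cell sum was 32.8 to 44.4 and 34.5 to 79.4, with Pmp22 as the brightest, without separation on either slide. The lymphocyte sum was 1.24, 1.31 and 0.99 on the Con arrays and 1.14, 0.99, 0.88 and 0.71 on the db arrays, with Ptprc as the brightest and Cd3g and Cd79a not well above background on any array. It too was lower on every db array than on every Con array of its slide, as were the endothelial and erythrocyte sums. The part of these cells in the values of Cish and Mup1 was not tested.

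The rest of the pathway was taken from 7 lists of 80 genes in all, of which 79 were on the array. In C2C12 cells 61 were tested, and 25 rose and 23 fell past the adjusted p in limma, with a median difference of 0.10 beside 0.05 over all genes. Over the whole array 69.3% were called. Of 6 JAK kinases and other STATs tested, 2 rose and 2 fell. Stat2 rose by 1.86 (SE 0.07, adjusted p = 8.4e-11), and the kinase Tyk2 fell by 1.18 (SE 0.11, adjusted p = 6.8e-07). Of 15 other regulators of the signal, 4 rose and 6 fell, the widest being the phosphatase gene Ptpn2 at 1.19 (SE 0.07), Socs6 at 0.88 (SE 0.10) and Pias1 at 0.84 (SE 0.06). Of 10 other targets of STAT5 or growth hormone, 6 rose and 3 fell. Igfbp3, a carrier of insulin-like growth factors, was not well above background on any WT array and read -1.15 ± 0.16 (SD, n = 6) in HDAC4&5 cells, while Ccnd2, a cyclin, rose by 3.49 (SE 0.06) and the cell cycle inhibitor Cdkn1a fell by 1.51 (SE 0.08).

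Of 9 STAT3 targets 3 rose and 4 fell, with Bcl3 at -4.27 (SE 0.10) and Cebpd at -1.59 (SE 0.05), and with Fos not well above background on any HDAC4&5 array. Of 8 receptors that use STAT5, 4 rose and 3 fell, with Csf2rb, the shared chain of the interleukin 3 family receptors, at 3.75 (SE 0.06) and Il2rg at -3.94 (SE 0.10), well above background on 5 of 6 HDAC4&5 arrays, and with Il7r not well above background on any WT array. Of 11 gp130 receptors and ligands 5 rose and 4 fell, with Il11ra1 at 5.72 (SE 0.05), Lifr, which pairs with CNTFR and gp130, at -2.80 (SE 0.07) and Il6ra at 1.73 (SE 0.16). Of the 2 ligands tested Il15 was at 1.90 (SE 0.33), well above background on 5 of 6 WT arrays. Thpo read -1.31 ± 0.13 (SD, n = 6) in WT and was well above background on 3 of 6 HDAC4&5 arrays, so no size is given for its fall, and Gh was not tested.

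Of the 53 list genes with a soleus test 0 passed the adjusted p in limma, while 1 did with slide as a block, with a median difference of -0.05 beside -0.02 over all genes. Within both slides 10 lay below Con and 4 above it, of 53, where 15.4% of all genes lay below and 14.6% above, 30.0% in either direction. Lep, the hormone leptin, had the widest difference of measured means. It read -3.67 ± 0.29 (SD, n = 3) in Con, well above background on 1 of 3 arrays. In db it read -0.05 ± 0.67 (SD, n = 4). Its measured means differed by 3.62 (SE 0.41, adjusted p = 0.13 in limma), a size set against Con values mostly not well above background. Lep was the gene that passed with slide as a block. Of the other STAT5 and growth hormone targets, Cdkn1a had a difference of -1.13 (SE 0.27), Bcl2l1 of 1.15 (SE 0.45) and Myc of -0.66 (SE 0.30), and Igf1, the main growth hormone target in liver, one of -0.22 (SE 0.54). Of the STAT3 targets Bcl3 had -1.27 (SE 0.50), Fos -1.06 (SE 0.47) and Cebpd 0.78 (SE 0.53). Jak2, the kinase of the growth hormone receptor, had -0.68 (SE 0.58), the phosphatase gene Ptpn11 -0.27 (SE 0.64), Csf2rb -0.92 (SE 0.35), Osmr -0.99 (SE 0.30), Ctf1 0.84 (SE 0.44) and Il11ra1 -0.07 (SE 0.28). Gh was not well above background on any soleus array, and the hormone in blood is not measured by these arrays.

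**Figure D5:**
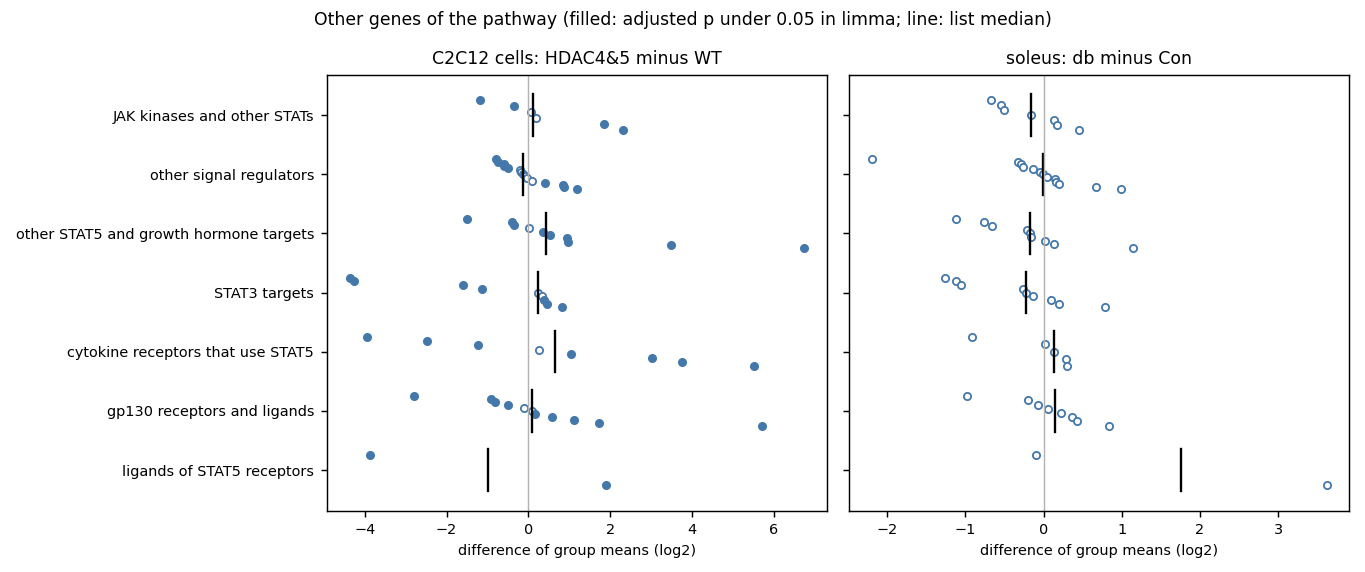
Difference of the group means on the log2 scale (x) for the tested genes of the 7 pathway lists (y) in C2C12 cells, left, and soleus, right. Filled points passed an adjusted p of 0.05 in limma, open points did not, and lines are list medians. In C2C12 cells 48 of 61 points are filled and lie on both sides of 0, and in soleus 0 of 53 are filled.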

How the data were processed

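Per the labels, total RNA was labelled with Cy3. For each array the authors deposited its scanner output, where Agilent Feature Extraction 9.5.1.1 (the submitters' processing notes) gives the processed intensity of each spot after background subtraction, unscaled. A matrix that the authors deposited holds, in most of its columns, the ratio of that intensity to a constant of the array. When its 19 columns were set against the scanner files, 15 matched 1 file up to a constant (tolerance 0.01, log2). The rest, all of soleus, matched none. Of the 15, 2 matched a db replicate other than the one named, so only groups were taken from the matrix. Column medians were 0.980 to 1.

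Values were log2 intensity minus the array's 75th percentile over 43379 non-control spots. Outlier spots were dropped and spots of a probe averaged, and a gene was read at its brightest probe. RefSeq accessions named 27198 probes. Groups were compared within each data set in limma 3.58.1 (R 4.3.3) with Benjamini-Hochberg adjustment, for genes that every array of 1 group or the other detected well above background and with at least 2 values per group. Standard errors of the 18 probes came from the same model over all probes. The steps were tested on simulated data. Promoter windows are from RefSeq.

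The 10 genes, the lists and the alternatives were chosen with earlier results of these data known. Named pathway genes were, per list, up to 3 with the widest difference past the adjusted p, or in soleus apart from Con within both slides. Gh, Igf1, Cyp2e1, Mup3 and Mup4 were added after their values were seen. The 5 genes closest to Cish and the brightest gene of each marker list are also named, with markers at or near background, and 1 gene that this rule would name is not reported here. The alternatives changed the normalization (quantile), the background correction (normexp, offset 50), the table (the deposited matrix), the dim-probe filter (none or stricter), the probe summary, the block (slide, or replicate number), the arrays (each soleus array left out) and the test (the methods' t-test); keeping outlier spots and taking the percentile over probes were added after the values were seen. Deviations from the group means correlated across genes between arrays with the same replicate number (0.192 to 0.552 in C2C12 cells, 0.405 to 0.688 in soleus). They did so alike for other numbers on the same slide (0.219 to 0.529, 0.317 to 0.741), so that a number stands for its slide and pairs the samples in that sense. Across slides the correlations were -0.476 to 0.049 and -0.655 to -0.390. Deviations from a group mean sum to 0, which by itself pushes the values across slides down. Replicates correlated at 0.988 or more in C2C12 cells and 0.829 or more in soleus. The number of arrays limits the precision.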

Additional observations from a re-analysis of the deposited data

How the results depend on the processing

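The count of genes past the adjusted p in soleus, 1 as reported, was 2 with quantile normalization, 0 with normexp, 0 with the deposited matrix, 0 with the stricter filter on dim probes, 40 with slide as a block and 2 with the percentile taken over probes. It was 0 to 2 with each array left out in turn, with 0 without either of Con replicates 1 and 2 or any of db replicates 2, 3 and 4, and 2 without Con replicate 3. The methods' t-test gave 968 at an unadjusted p under 0.05 and 2 after Benjamini-Hochberg adjustment. The count of other pathway genes in soleus, 0 as reported, was 1 with slide as a block and 1 with the percentile over probes. At an unadjusted p under 0.05 in limma 824 soleus genes passed. With the replicate number as a block, 1 soleus gene and 10743 C2C12 genes passed, and no call among the 10 genes changed. Where the count of all genes was 0, the lost call was that of Mup1, which the stricter filter removes by construction and for which the deposited matrix lists no db value. The causes of the other changes were not tested. In C2C12 cells the count of all genes ran from 7088 to 10859. Of the 10 genes, 8 passed there as reported, 7 with normexp, where 7278 of all genes did. With the stricter filter on dim probes 6 passed, where 8573 of all genes did. The number of the 10 without overlap in C2C12 cells was 7 with normexp. In soleus, 4 as reported, it was 3 with the deposited matrix, and 5 with quantile normalization or without db replicate 3. Of the 167 soleus values of the 10 genes under the alternatives 29 had the other sign, 10 of them for Stat5b, 7 for Stat5a, 5 each for Socs1 and Stat3 and 2 for Ghr, while Cish, Socs2, Socs3, Mup1 and Cntfr kept theirs. For Mup1 the difference ran from -6.69 to -2.68, the latter with normexp, which raises dim signals, and for Cntfr from -2.99 to -1.01, the latter with the deposited matrix. Signal near background limits both. In C2C12 cells 2 of 108 values had the other sign, 1 each for Mup1 and Stat5a.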
